A study of Mus musculus with 24 samples.

Results

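The neuronal nicotinic acetylcholine receptor subunit genes Chrna3, Chrna4, Chrna5, Chrna6, Chrna7, Chrnb2, Chrnb3 and Chrnb4 were followed through the development of the mouse retina. They were found by gene symbol on chromosomes 1 to 19 or X in the gene count table, which gave 8 of 45594 genes. The rule used no measured value, but the members were chosen with earlier results of these data known. The libraries came from whole retinas of the C57/Bl6N strain at 12 stages: embryonic day (E) 11, 12, 14 and 16 and postnatal day (P) 0, 2, 4, 6, 10, 14, 21 and 28. Each stage had 2 libraries of polyadenylated RNA, 24 in all, with no treatment or genetic change named in the labels. Whether the libraries of a stage are separate animals, litters or pooled tissue is not stated in the labels, and the p-values therefore reflect only the spread between these samples, which may be technical.

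Nicotinic receptors are channels of 5 subunits that open when acetylcholine binds. Neuronal receptors combine alpha subunits with beta subunits, or consist of alpha7 alone, and the make-up sets the ligand affinity and the calcium permeability. In the early postnatal retina, starburst amacrine cells release acetylcholine and ganglion cells respond through nicotinic receptors, which carries spontaneous waves of activity before the eyes open. The wave period in the mouse is taken here as about P0 to P10. Later waves depend on glutamate.

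Depth was 24567532 to 35898879 counts per library, and all 8 genes were among the 21858 genes with enough counts to be tested. Ganglion cell markers were present at every stage from E14 on, with all 11 detected, while 2 of the 11 were at 0 in both libraries at E11, when their summed level was 60.3 to 64.8 CPM (the field's depth-scaled read count, here with library sizes adjusted by TMM, a normalization that aligns library compositions). The lens markers differed by over 10 times between the libraries of E11, E12, E14 and P14. Their sum was 3210 CPM in the first library of E11 and 21 in the second, and 90.6 CPM in the second library of P14 and 3.83 in the first; the second libraries of E12 and E14 were the richer. The 5 red blood cell markers were also high at E11, with a sum of 3080 to 7520 CPM. The spread between libraries was widest at E11. The standard deviation of the log2 difference over the better expressed genes, divided by the square root of 2, was 0.391 at E11. It was 0.156 to 0.256 at the other stages. The part of these other tissues in the subunit levels was not tested, but values without the 4 lens-rich libraries are given where they differ.

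Of the 8 genes, 5 lie in 2 clusters (coordinates of the authors' files on GRCm38). Chrna5 lies on the plus strand of chromosome 9 at chr9:54980880-55007779. Chrna3 follows on the minus strand at chr9:55011343-55026559, after a gap of 3563 bases, and Chrnb4 on the minus strand at chr9:55028156-55048544, after a further 1596 bases. On chromosome 8, Chrnb3 on the plus strand at chr8:27368711-27399729 and Chrna6 on the minus strand at chr8:27403214-27413944 are 3484 bases apart. Chrna4 (chr2:181018380-181043546), Chrnb2 (chr3:89746195-89764632) and Chrna7 (chr7:63098692-63212569), all on the minus strand, stand alone. The promoter windows of the chromosome 9 cluster are printed because these neighbours followed 3 different time courses. Each runs 5′ to 3′ on the gene's strand from 250 bases before to 50 bases after a RefSeq start (GRCm38.p6). RefSeq windows matched 6 of the 8 genes. Capitals mark CAGCTG, an E-box of the kind bound by basic helix-loop-helix factors, and GGGCGG, a GC box, read on either strand, so that CCGCCC is a GC box on the other strand. CAGCTG is one form of the general E-box CANNTG, which is not marked.
Chrna3, chr9:55026513-55026812, minus strand: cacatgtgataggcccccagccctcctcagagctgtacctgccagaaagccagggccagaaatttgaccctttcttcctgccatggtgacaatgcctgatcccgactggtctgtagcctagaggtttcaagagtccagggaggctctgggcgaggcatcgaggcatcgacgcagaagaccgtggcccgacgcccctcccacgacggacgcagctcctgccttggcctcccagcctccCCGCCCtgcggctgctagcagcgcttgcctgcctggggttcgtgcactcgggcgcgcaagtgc
Chrnb4, chr9:55048495-55048794, minus strand: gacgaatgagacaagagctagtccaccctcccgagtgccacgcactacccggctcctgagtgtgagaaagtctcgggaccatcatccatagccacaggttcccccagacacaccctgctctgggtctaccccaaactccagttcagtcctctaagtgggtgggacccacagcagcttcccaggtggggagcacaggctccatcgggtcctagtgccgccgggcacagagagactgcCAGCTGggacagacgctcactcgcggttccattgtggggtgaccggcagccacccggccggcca
Chrna5, chr9:54980630-54980929, plus strand: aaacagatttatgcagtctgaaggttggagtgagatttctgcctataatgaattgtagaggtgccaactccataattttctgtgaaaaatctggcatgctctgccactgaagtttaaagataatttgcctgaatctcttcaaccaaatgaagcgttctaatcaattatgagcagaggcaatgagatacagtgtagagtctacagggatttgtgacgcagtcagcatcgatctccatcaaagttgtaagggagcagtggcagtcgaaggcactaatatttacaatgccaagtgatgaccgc
Chrna5, second start, chr9:54981238-54981537, plus strand: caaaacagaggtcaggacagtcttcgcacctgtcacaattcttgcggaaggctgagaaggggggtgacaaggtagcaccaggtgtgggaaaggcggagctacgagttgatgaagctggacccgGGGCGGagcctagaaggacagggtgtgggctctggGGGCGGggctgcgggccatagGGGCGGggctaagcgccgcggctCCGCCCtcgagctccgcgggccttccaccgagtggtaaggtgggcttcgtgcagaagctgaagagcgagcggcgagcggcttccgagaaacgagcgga

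The Chrna3 window held 1 GC box, at position -13 from the start, and no CAGCTG. The Chrnb4 window held 1 CAGCTG, at position -14, and no GC box. For Chrna5, the window at the gene start of the authors' files held neither and had 41.3% G and C, while the window at the other start held 4 GC boxes and had 65% G and C. Over the 32851 RefSeq windows of this length, 16.3% held CAGCTG, 35.7% held GGGCGG and 72.3% held CANNTG, with a median of 52.7% G and C. These matches describe the letters only.

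Every subunit gene changed over development. In an edgeR quasi-likelihood test over the 12 stages, a gene was called when its Benjamini-Hochberg adjusted p over all genes tested was under 0.05 and its fitted stage means spanned at least 2-fold. All 8 genes were called, where 77.3% of all genes tested were. The span was narrowest for Chrna7, at 6.1-fold, and widest for Chrna6 and Chrnb3, which were nearly undetected at the earliest stages. The highest stage mean fell at E14 for Chrna3 and Chrna4, at P2 for Chrnb4, at P6 for Chrna5, at P14 for Chrna7 and Chrnb2, and at P21 for Chrna6 and Chrnb3. These are levels in whole retina, where fewer cells of a type and less RNA per cell cannot be told apart.

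**Figure D1:**
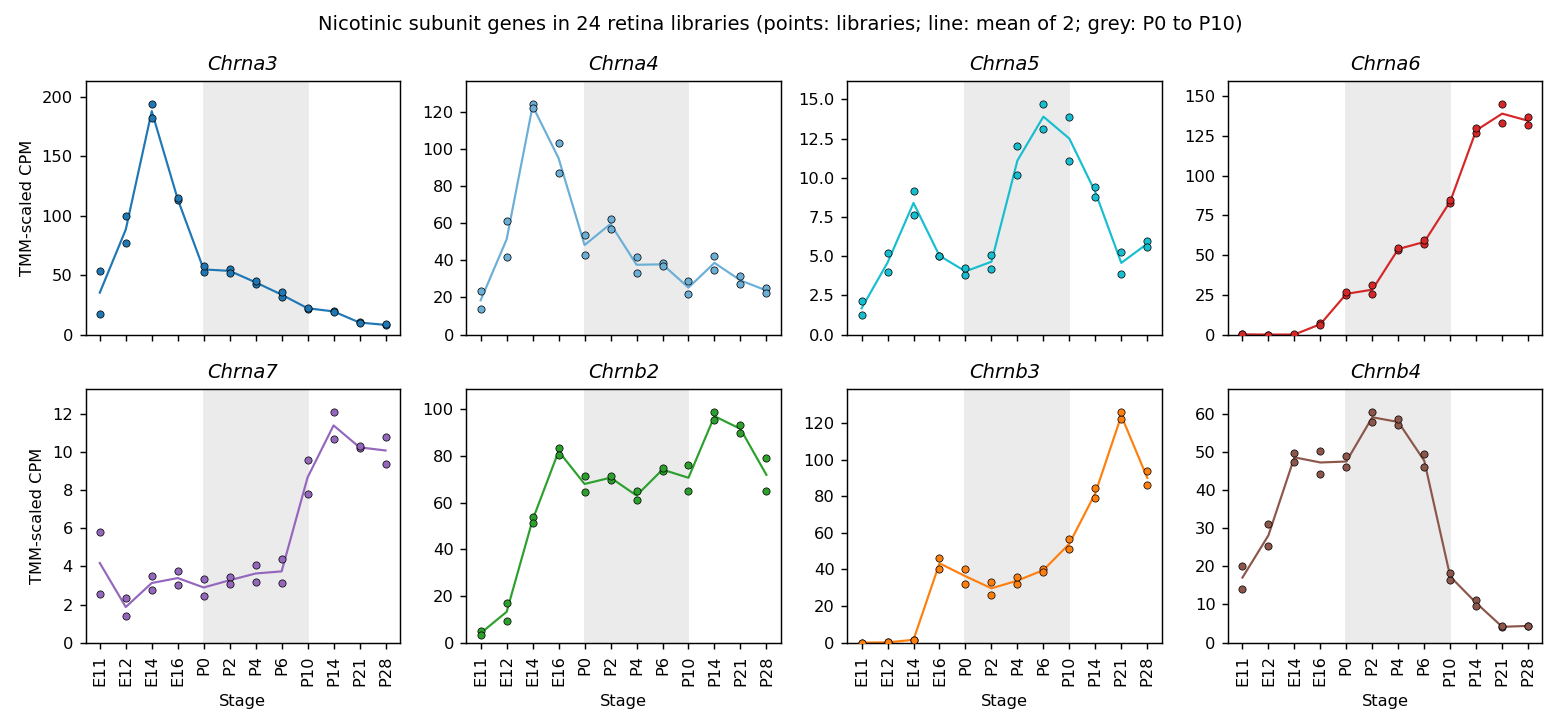
TMM-scaled CPM of each subunit gene (vertical axis, own scale per panel) against stage (horizontal axis), with 1 point per library, the mean of 2 libraries as a line and P0 to P10 in grey. Chrna3 and Chrna4 are highest at E14, Chrnb4 is highest at P2 and falls between P6 and P10, Chrna5 is highest at P6, and Chrna6 and Chrnb3 are highest at P21.

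Chrna3 encodes alpha3, a ligand-binding subunit that pairs with beta2 or beta4 and takes part in the cholinergic waves. Its 2 libraries gave 53.2 and 17.5 CPM at E11, 100 and 76.9 at E12, 194 and 182 at E14, and 113 and 115 at E16. They gave 52.4 and 57.4 CPM at P0, 55.1 and 52.2 at P2, 42.5 and 45.5 at P4, 31.7 and 35.6 at P6, and 22 and 22.4 at P10. At P14 they gave 19.8 and 19.3 CPM, at P21 10.8 and 9.54, and at P28 7.86 and 8.58. The mean level thus climbed to E14 and was lower at each later stage, so that the whole wave period lay on its downward slope, from 29.2% of the E14 mean at P0 to 11.8% at P10. In the order of levels, P0 and P2 overlapped, P4 overlapped E11, and E11 overlapped P6; all other neighbours in the order were apart. The lens-rich library of E11 was the higher of its pair. The ganglion marker sums of the 2 E11 libraries were 60.3 and 64.8 CPM, given lowest first. The part of lens tissue or ganglion cells in the Chrna3 difference was not tested.

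Chrnb4 encodes beta4, a partner of alpha3. Its libraries gave 20.1 and 14 CPM at E11, 31 and 25.2 at E12, 49.8 and 47.3 at E14, and 50.3 and 44.1 at E16. They gave 48.8 and 46.1 CPM at P0, 57.7 and 60.4 at P2, 56.9 and 58.7 at P4, and 45.9 and 49.4 at P6. They then gave 16.4 and 18.2 CPM at P10, 11.3 and 9.49 at P14, 4.02 and 4.28 at P21, and 4.39 and 4.38 at P28. Chrnb4 therefore held 79.9% to 100% of its highest mean from E14 to P6 and 29.3% at P10. The P2 and P4 libraries overlapped each other and stood above all others; those of E14, P6, P0 and E16 overlapped in turn. Over the 12 stages its log2 stage means correlated with those of its neighbour Chrna3 at r = 0.833, a description over stages that share libraries.

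Chrna5 encodes alpha5, an accessory subunit that joins receptors built on alpha3 or alpha4 and does not form the binding site on its own. It was a low gene, with 2.13 and 1.23 CPM at E11, 5.21 and 3.97 at E12, 9.16 and 7.63 at E14, and 5.02 and 5.04 at E16. It gave 3.81 and 4.26 CPM at P0, 4.21 and 5.09 at P2, 11.96 and 10.18 at P4, 13.1 and 14.7 at P6, and 11.14 and 13.91 at P10. Later values were 8.75 and 9.42 CPM at P14, 3.89 and 5.26 at P21, and 6 and 5.6 at P28. Both libraries of P4, P6 and P10 exceeded every library of the other 9 stages, and these 3 stages overlapped in the order P6, P10, P4. Chrna5 thus had its highest levels within the wave period while Chrna3, 3563 bases away, was falling, and the correlation between the pair over the 12 stages was r = -0.0168.

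Chrna4 encodes alpha4, which with beta2 forms the main high-affinity nicotine receptor of the brain. It gave 23.3 and 13.7 CPM at E11, 61.1 and 41.5 at E12, 124 and 122 at E14, and 103 and 86.7 at E16. It gave 53.7 and 42.7 CPM at P0, 62.2 and 56.9 at P2, 33.3 and 41.9 at P4, 38.5 and 37.1 at P6, and 28.7 and 21.9 at P10. It gave 42.5 and 34.7 CPM at P14, 27 and 31.4 at P21, and 25.3 and 22.2 at P28. The E14 libraries stood above all others and the E16 libraries above all later ones. From P4 on, no stage mean was above 31.4% of the E14 mean, and 7 of the 11 pairs of neighbours in the order of its levels overlapped.

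Chrnb2 encodes beta2, which mice need for normal cholinergic waves. It gave 4.86 and 3.29 CPM at E11, 17.2 and 9.23 at E12, 53.9 and 51.4 at E14, and 83.4 and 80.6 at E16. It gave 71.5 and 64.5 CPM at P0, 69.8 and 71.6 at P2, 61.2 and 64.9 at P4, 73.6 and 74.7 at P6, and 76.3 and 65 at P10. It gave 98.8 and 95.3 CPM at P14, 93.3 and 89.9 at P21, and 79 and 64.8 at P28. Stage means from E16 on stayed between 63.1 and 97 CPM, and those of P6, P28, P10, P2, P0 and P4 overlapped in turn, while P14 and P21 stood above the rest without overlapping each other.

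Chrna6 encodes alpha6, a ligand-binding subunit known from retinal ganglion cells and dopamine neurons. Its libraries gave 0.0985 and 0.24 CPM at E11, 0.0734 and 0.0339 at E12, and 0.0639 and 0.107 at E14, which are 10, 3 and 5 counts per pair of libraries. It then gave 7.04 and 6.09 CPM at E16, 24.7 and 26.6 at P0, 25.3 and 31.3 at P2, 53 and 54.7 at P4, and 57.2 and 59.4 at P6. It gave 82.7 and 84.9 CPM at P10, 127 and 130 at P14, 145 and 133 at P21, and 137 and 132 at P28. Both libraries of each stage from P4 to P14 lay above those of the stage before, and P21 and P28 overlapped.

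Chrnb3 encodes beta3, an accessory subunit that joins alpha6 receptors, and lies next to Chrna6. Its libraries gave 0.0328 and 0 CPM at E11, 0.183 and 0.136 at E12, 1.63 and 1.49 at E14, and 46.4 and 40.3 at E16. They gave 32.1 and 40.5 CPM at P0, 33.2 and 26.2 at P2, 31.8 and 36 at P4, 40.5 and 38.8 at P6, and 56.8 and 51.3 at P10. They gave 84.6 and 78.8 CPM at P14, 122 and 126 at P21, and 93.9 and 86.2 at P28. Chrnb3 had 35% of its highest mean at E16, when Chrna6 had 4.72% of its own. From E16 to P6 the libraries of the 5 stages overlapped in turn, and from P10 to P21 each stage stood above the one before. The log2 stage means of Chrnb3 and Chrna6 correlated at r = 0.931, and those of Chrnb3 and Chrnb2 at r = 0.933, over 12 stages. These stages include E11 to E14, where Chrna6 and Chrnb3 had few counts. Between E16 and P6 the log2 mean of Chrna6 went from 2.725 to 5.867 and that of Chrnb3 from 5.437 to 5.312.

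Chrna7 encodes alpha7, which forms calcium-permeable receptors without a beta subunit. It was low throughout, with 2.56 and 5.8 CPM at E11, 2.35 and 1.39 at E12, 2.78 and 3.48 at E14, and 3.01 and 3.77 at E16. It gave 3.36 and 2.43 CPM at P0, 3.47 and 3.08 at P2, 4.08 and 3.18 at P4, 3.11 and 4.37 at P6, and 9.56 and 7.79 at P10. It gave 332 and 375 counts at P14, a mean of 11.4 CPM, then 307 and 305 counts at P21, 89.9% of that mean, and 10.8 and 9.37 CPM at P28. Both libraries of P10 and of each later stage exceeded every earlier library. The earlier stages from E11 to P6, E12 aside, overlapped in turn.

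In the embryonic interval, E16 against E11, nearly the whole family rose, with the beta subunits Chrnb2 and Chrnb3 and the alpha subunit Chrna6 changing most. By the edgeR quasi-likelihood test, with a gene called at a Benjamini-Hochberg adjusted p under 0.05 and at least 2-fold, 7 of 8 genes were called higher, where 13.6% of all genes tested were. The 8th, Chrna7, was not called, and none was called lower, where 9.11% of all genes were. The median log2 change was 2.02 over the members and 0 over all genes. Chrnb2 rose by 4.33 on the log2 scale (SE 0.228, adjusted p = 8.63e-11) and Chrna6 by 5.26 (SE 0.227, adjusted p = 8.19e-12). Chrnb3 had 1 count in the E11 libraries together and 2846 in those of E16, a ratio of 2590 with a 95% counting interval of 464 to 102000. Chrna4 rose by 2.36 (SE 0.231, adjusted p = 2.41e-07), Chrna3 by 1.69 (SE 0.295, adjusted p = 0.000149), Chrna5 by 1.57 (SE 0.242, adjusted p = 4.19e-05) and Chrnb4 by 1.47 (SE 0.145, adjusted p = 2.49e-07). Chrna7 differed by -0.3 (SE 0.319, adjusted p = 0.479) with overlapping libraries. Single libraries of E11 moved some of these sizes by over 1.5 times: without the lens-rich first library the change of Chrna3 was 2.71 and that of Chrnb3 13.39, and without the second library that of Chrna6 was 6.01, that of Chrnb3 1.77 times smaller as a ratio, and that of Chrna7 0.41. The ganglion marker sum was 1470 to 1540 CPM at E16, against 60.3 to 64.8 at E11, and the amacrine marker sum 364 to 406, against 43.2 to 47.7. The part of these cells in the subunit changes was not tested. The libraries of E11 and E12 were made from 100 ng of RNA and all later ones from 1 ug, so in E16 against E11, and in the step from E12 to E14, stage and RNA input cannot be told apart.

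Across the wave period, P10 against P0, the family split. Chrna5, Chrna6 and Chrna7 were called higher, 3 of 8 genes where 15.2% of all genes were, and Chrna3 and Chrnb4 were called lower, 2 of 8 where 12.4% of all genes were. Chrna6 rose 3.27-fold (log2 1.71, SE 0.118, edgeR adjusted p = 2.13e-09), Chrna5 3.1-fold (log2 1.63, SE 0.226, edgeR adjusted p = 1.06e-05) and Chrna7 2.99-fold (log2 1.58, SE 0.32, edgeR adjusted p = 0.000513). Chrnb4 fell by 1.46 on the log2 scale (SE 0.144, edgeR adjusted p = 2.03e-07) and Chrna3 by 1.31 (SE 0.296, edgeR adjusted p = 0.00135). By the adjusted p alone, without the 2-fold rule, 7 of 8 genes passed, where 49.6% of all genes did. The others were Chrna4 at -0.93 (SE 0.223, edgeR adjusted p = 0.00212) and Chrnb3 at 0.57 (SE 0.134, edgeR adjusted p = 0.0017). Chrna4 was past 2-fold without the second library of P0 (-1.09), without the first of P10 (-1.14) and with summed transcript estimates (-1.2). Chrnb2, the beta subunit of the wave receptors, differed by 0.06 (SE 0.189, edgeR adjusted p = 0.836). The ganglion marker sum was 758 to 772 CPM at P0 and 1000 to 1040 at P10, but its members did not move together. The stage means of 6 of the 11 were lower at P10, among them Pou4f1 (74.6 CPM at P0 and 24.3 at P10), Pou4f2 (29 and 9.55), Rbpms (67.2 and 24.9) and Ebf3 (91.4 and 48). Those of the other 5 were higher, among them Nefl (183 and 312), Isl1 (79.7 and 254) and Thy1 (40.4 and 98.4). The starburst amacrine sum was 367 to 408 CPM at P0 and 430 to 456 at P10. It also counts Isl1, and 3 of its 9 members, Megf10, Sox2 and Tenm3, had lower means at P10. The bipolar sum was 815 to 822 CPM at P0 and 1410 to 1500 at P10, the amacrine sum 534 to 603 and 490 to 554, the progenitor sum 4650 to 4770 and 40.3 to 45.2, and the rod sum 212 to 221 and 14500 to 15100. The part of these cell types in the subunit changes was not tested.

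From P10 to P28, after the wave period, Chrnb4, Chrna3 and Chrna5 were called lower, 3 of 8 genes where 4.9% of all genes were, and none was called higher, where 6.35% of all genes were. This comparison shares the P10 libraries with the one before. Chrnb4 fell by 1.98 on the log2 scale (SE 0.157, edgeR adjusted p = 1.09e-07), Chrna3 by 1.43 (SE 0.31, edgeR adjusted p = 0.0021) and Chrna5 by 1.11 (SE 0.22, edgeR adjusted p = 0.00105). Without the second library of P10 the change of Chrna5 was -0.94, under 2-fold. By the adjusted p alone 5 of 8 genes passed, where 29.9% of all genes did, the others being Chrnb3 at 0.74 (SE 0.132, edgeR adjusted p = 0.000462) and Chrna6 at 0.68 (SE 0.114, edgeR adjusted p = 0.000237). Chrna7 at 0.22, Chrna4 at -0.09 and Chrnb2 at 0.03 had overlapping libraries and edgeR adjusted p of 0.639, 0.809 and 0.943. The ganglion marker sum was 1060 to 1120 CPM at P28, against 1000 to 1040 at P10, with 8 of the 11 stage means higher and 3 lower, among these Isl1 (254 CPM at P10 and 107 at P28). The starburst amacrine sum, which also counts Isl1, was 274 to 310 CPM at P28, against 430 to 456. Of its 9 members 5 had higher stage means at P28, among them Chat (8.16 CPM at P10 and 14.4 at P28). The other 4 had lower means, among them Isl1 and Megf10 (47.8 and 25.9). The bipolar sum was 1000 to 1100 CPM at P28, against 1410 to 1500. The amacrine sum was 704 to 819 CPM, against 490 to 554, and the rod sum 47000 to 51500, against 14500 to 15100. The part of these cell types in the changes was not tested.

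**Figure D2:**
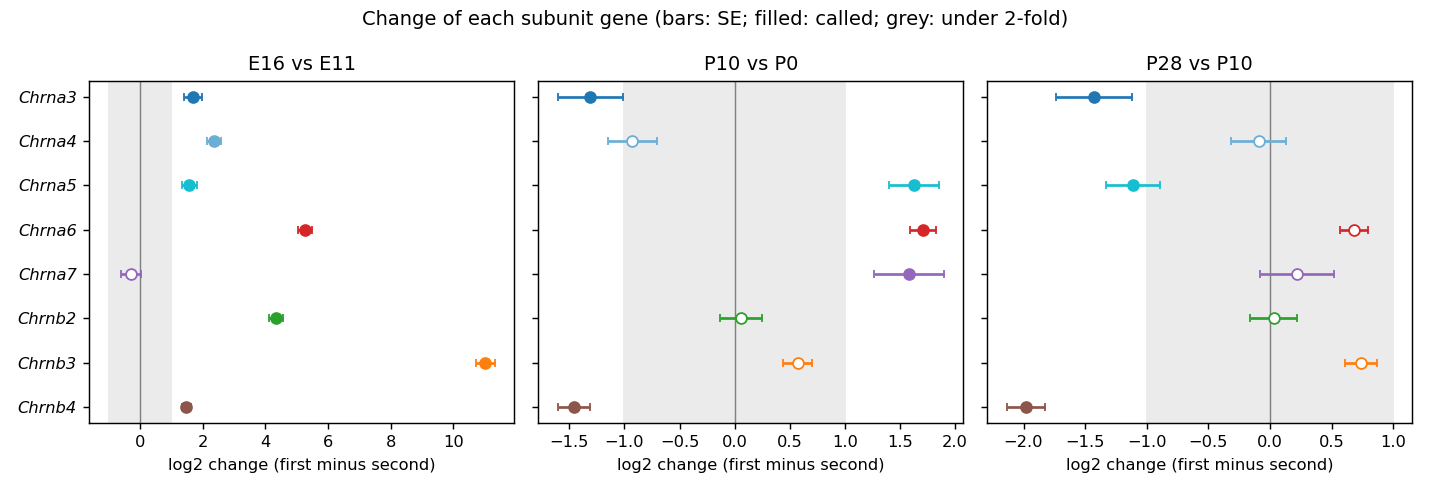
Log2 change of each subunit gene (horizontal axis, first stage minus second, own scale per panel) in E16 against E11, P10 against P0 and P28 against P10. Bars are standard errors, filled points are called genes and grey marks changes under 2-fold. In E16 against E11 7 points are filled on the higher side; in P10 against P0 Chrna5, Chrna6 and Chrna7 are on the higher side and Chrna3 and Chrnb4 on the lower.

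The steps between neighbouring stages, which share libraries, placed these changes in time. Over the 11 steps 18 calls were made by edgeR. From E11 to E12, 5 genes were called higher (Chrna3, Chrna4, Chrna5, Chrnb2 and Chrnb3), where 4.08% of all genes were, and Chrna7 lower at -1.16, where 3.92% were. From E12 to E14 Chrna3, Chrna4, Chrnb2 and Chrnb3 were called higher, where 7.52% of all genes were. From E14 to E16 Chrna6 rose 74.5-fold and Chrnb3 27.7-fold, the only 2 calls among the 8, where 5.47% of all genes were called higher. From E16 to P0 Chrna6 rose 3.9-fold, where 4.75% were called higher, and Chrna3 fell by 1.06 on the log2 scale, where 3.03% were called lower.

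Several of the earliest calls rested on single libraries. The Chrna3 change from E11 to E12 was 1.32, but 2.33 without the first E11 library, 2.51 without the 4 lens-rich libraries and 0.73 without the second E11 library, and it was not called without the first E12 library (edgeR adjusted p = 0.0582, the highest of a range from 1.18e-11 over its alternatives). The Chrna7 change was -0.46 without the second E11 library and -0.84 without the second E12 library, neither called. Chrnb3 had 9 counts at E12 and 1 at E11, a ratio of 9.45 with a 95% counting interval of 1.31 to 414. Its call was lost with DESeq2 (adjusted p = 0.0994) and without the second E11 or the first E12 library (edgeR adjusted p = 0.264 and 0.161), with adjusted p from 0.0231 to 0.264 over its alternatives. Without the lens-rich libraries the changes from E11 to E12 were 2.15 for Chrna4, 2.07 for Chrna5 and 2.38 for Chrnb2, against 1.47, 1.44 and 1.69 with them. The change of Chrnb3 was 5.53 without these libraries and 2.97 with them, on the few counts given above. The Chrna3 change from E12 to E14 was 1.09, and it was not called without the second E12 library (0.92), without the first E14 library (1.05) or without the lens-rich libraries (0.97). Its fall from E16 to P0 was not called without any one of the 4 libraries compared, at changes of -1.13 to -0.99, or with library size alone as the scaling.

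After birth the steps held fewer calls. From P2 to P4 Chrna5 rose 2.37-fold, where 3.97% of all genes were called higher. From P6 to P10 Chrna7 rose 2.32-fold, where 4.59% were called higher, and Chrnb4 fell by 1.46 on the log2 scale, where 3.28% were called lower; the Chrna7 call was lost without the first library of P6 or of P10 (changes of 0.97 and 1.06). From P14 to P21 Chrnb4 fell by 1.33 on the log2 scale, where 5.07% were called lower. Both called falls of Chrnb4 thus lay in steps after P6. The only called fall of Chrna3 was that from E16 to P0, and its next largest step was from P14 to P21, at 1.92-fold lower, under the 2-fold rule.

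In 4 postnatal steps edgeR called 0 of the 8 genes. From P0 to P2, 3.98% of all genes were called, 2 of the 8 had an unadjusted p under 0.05 where 30.6% of all genes did, and DESeq2 called 0 where it called 3.31% of all. From P4 to P6, 2.61% of all genes were called, 0 of the 8 had an unadjusted p under 0.05 where 20.5% did, and DESeq2 called 0 where it called 2.58%. From P10 to P14, 4.52% of all genes were called, 6 of the 8 had an unadjusted p under 0.05 where 30.9% did, and DESeq2 called 0 where it called 4.51%. In that step 3 genes passed the adjusted p but not the 2-fold rule: Chrnb4, 1.66-fold lower, Chrna6, 1.54-fold higher, and Chrnb3, 1.51-fold higher. From P21 to P28, 0.888% of all genes were called, 1 of the 8 (Chrnb3, -0.46) had an unadjusted p under 0.05 where 19.9% did, and DESeq2 called 0 where it called 0.746%.

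To compare the subunits with one another, transcript estimates were divided by transcript length and given per kilobase on the CPM scale. The summed per-length level of the 8 genes was 23.9 ± 10 (SD, n = 2) at E11, 117 ± 3.8 at E14, 74.4 ± 1.3 at P0, 78.4 ± 2.6 at P10 and 112 ± 2.4 at P21. From P0 to P10 it stayed between 74.4 and 82, while its make-up turned over. Chrna3 was the largest share at each stage from E11 to P2, with 51.2% ± 0.69 (SD, n = 2) at E14, 23.8% ± 1.8 at P0 and 9.01% ± 0.36 at P10. Its share was 54.7% and 33.3% in the 2 libraries of E11. At P2 its lead over Chrnb4 was narrow, with 22.6% and 21.5% against 20.4% and 21.4% in the 2 libraries. Chrna6 was the largest share from P4 to P28, with 0.0253% ± 0.0097 at E14, 12% ± 0.77 at P0, 22.7% ± 0.45 at P4, 36.6% ± 1.6 at P10 and 48.4% ± 1.6 at P28. Chrnb4 held 20.9% ± 0.77 at P2, 6.21% ± 0.62 at P10 and 1.07% ± 0.061 at P21. Chrnb3 held 9.23% ± 0.49 at E16 and 25.3% ± 1.1 at P21. Chrnb2 held 13.1% to 16% at every stage from E16 on. Chrna5 held 6.31% ± 0.3 at P6 and 1.58% ± 0.36 at P21, and Chrna7 5.15% ± 0.64 at P10. These are shares of transcripts and say nothing of assembled receptors.

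**Figure D3:**
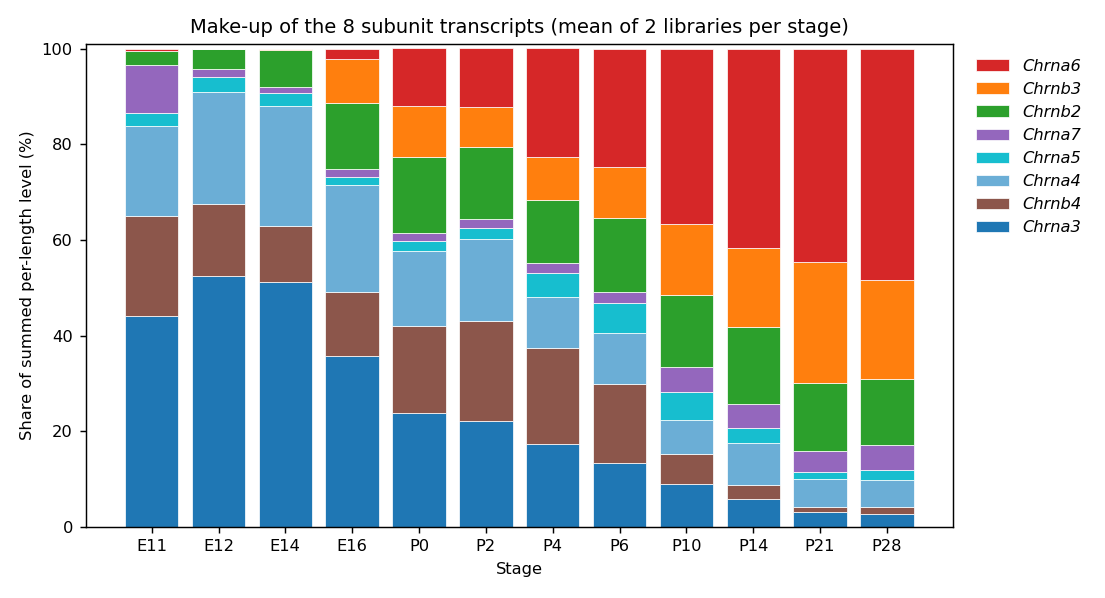
Share of each subunit gene in the summed per-length level of the 8 genes (vertical axis, percent, mean of 2 libraries) at each stage (horizontal axis), as stacked bars. Chrna3 has the largest share from E11 to P2 (51.2% at E14), narrowly so at P2 (22.1%, against 20.9% for Chrnb4). Chrna6 has the largest share from P4 on (48.4% at P28).

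Ratios within a library do not depend on its scaling. The per-length level of Chrna6 was 0.507 and 0.499 times that of Chrna3 in the 2 libraries of P0 and 0.49 and 0.639 times at P2. It was 1.34 and 1.29 times that of Chrna3 at P4, 4.05 and 4.07 times at P10, and 18.9 and 16.7 times at P28. The order of these alpha subunits thus turned between P2 and P4 in both libraries. The per-length level of Chrnb2 was 0.145 and 0.142 times that of Chrnb4 at E11 and close to equal to it at E16, at 0.995 and 1.1 times. It was 0.647 and 0.664 times at P4, 0.963 and 0.91 times at P6, 2.8 and 2.14 times at P10, and 13.9 and 12.6 times at P21. Among the beta subunits the order turned between P6 and P10, and the ratio at P4 was below that at E16 in both libraries.

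**Figure D4:**
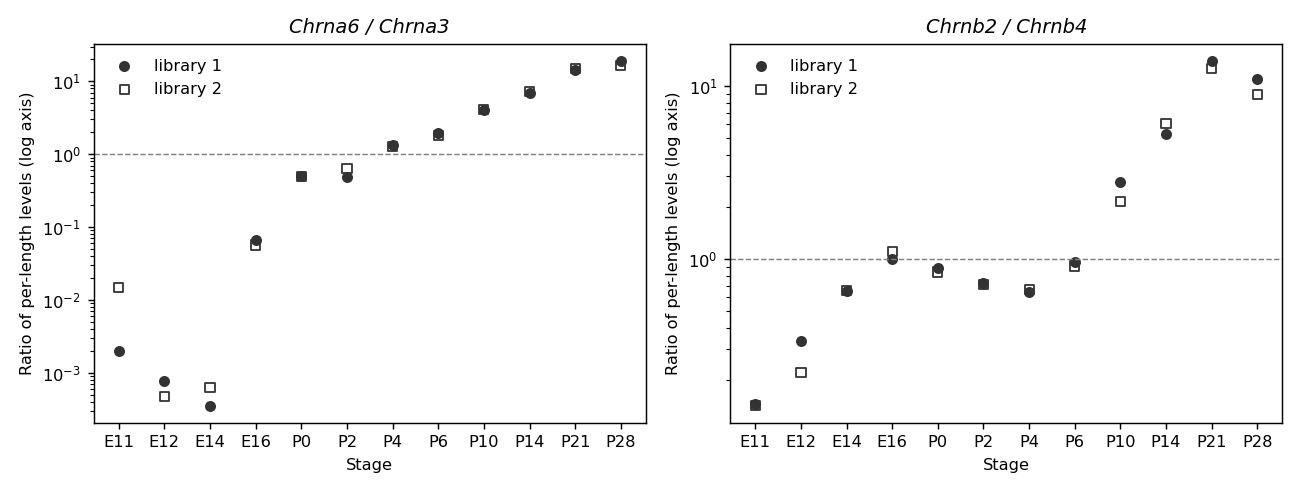
Ratio of per-length levels of Chrna6 to Chrna3 and of Chrnb2 to Chrnb4 (vertical axis, log scale) at each stage (horizontal axis), with 1 symbol per library and a dashed line at equality. Chrna6 passes Chrna3 between P2 and P4, and Chrnb2 passes Chrnb4 for good between P6 and P10.

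Genes of acetylcholine supply and breakdown were read beside the receptors. Of 8 listed genes, all tested, 3 were called higher and 1 lower in E16 against E11, 3 higher in P10 against P0, and 3 higher in P28 against P10. Over all genes 13.6% were called higher and 9.11% lower in the first comparison, 15.2% higher in the second and 6.35% higher in the third. Their median log2 changes were 1.2, 1.2 and 0.86, against 0, 0.01 and 0.01 over all genes. Chat, which makes acetylcholine, was at 2.97 ± 0.52 CPM (SD, n = 2) at P0, 8.16 ± 1.1 at P10 and 14.9 ± 0.94 at P14, and it rose 2.74-fold from P0 to P10 (edgeR adjusted p = 0.00556). Slc18a3, the vesicular acetylcholine transporter, was at 2.15 ± 0.59 CPM at P0, 3.07 ± 0.2 at P10 and 8.7 ± 0.62 at P14. Slc5a7, the choline transporter of cholinergic terminals, was at 1.74 ± 0.036 CPM at P0 and 20.9 ± 1.6 at P10 and rose 12-fold (edgeR adjusted p = 2.41e-09). Before that, Slc5a7 was called lower from E16 (5.47 ± 0.82 CPM) to P0, and it was still at 2.35 ± 0.54 CPM at P4. Slc44a1, a general choline transporter, rose 3.48-fold. Ache, which breaks down acetylcholine, was at 21.4 ± 6.6 CPM at P10 and 44.4 ± 4 at P28 and rose 2.07-fold (edgeR adjusted p = 0.0231). Prima1, which anchors acetylcholinesterase in membranes, rose 29.3-fold from P10 (0.65 ± 0.011 CPM) to P28 (19.1 ± 3.8 CPM). Its course was uneven, with 3.09 ± 3.9 CPM at P6, 7.59 ± 0.084 at P14 and 4.53 ± 2.1 at P21. Colq, the collagen tail of the same enzyme, was called higher from P10 to P28 with overlapping libraries. In E16 against E11 the genes called higher were Slc18a3, Slc5a7 and Ache, and the one called lower, named after its value was seen, was Bche (-1.24). Thus Chat and Slc5a7 were higher at P10 than at P0, while Slc18a3 was not called (log2 0.51, edgeR adjusted p = 0.258). Of the subunits, Chrna3 and Chrnb4 were called lower in this comparison, and Chrna5, Chrna6 and Chrna7 higher.

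**Figure D5:**
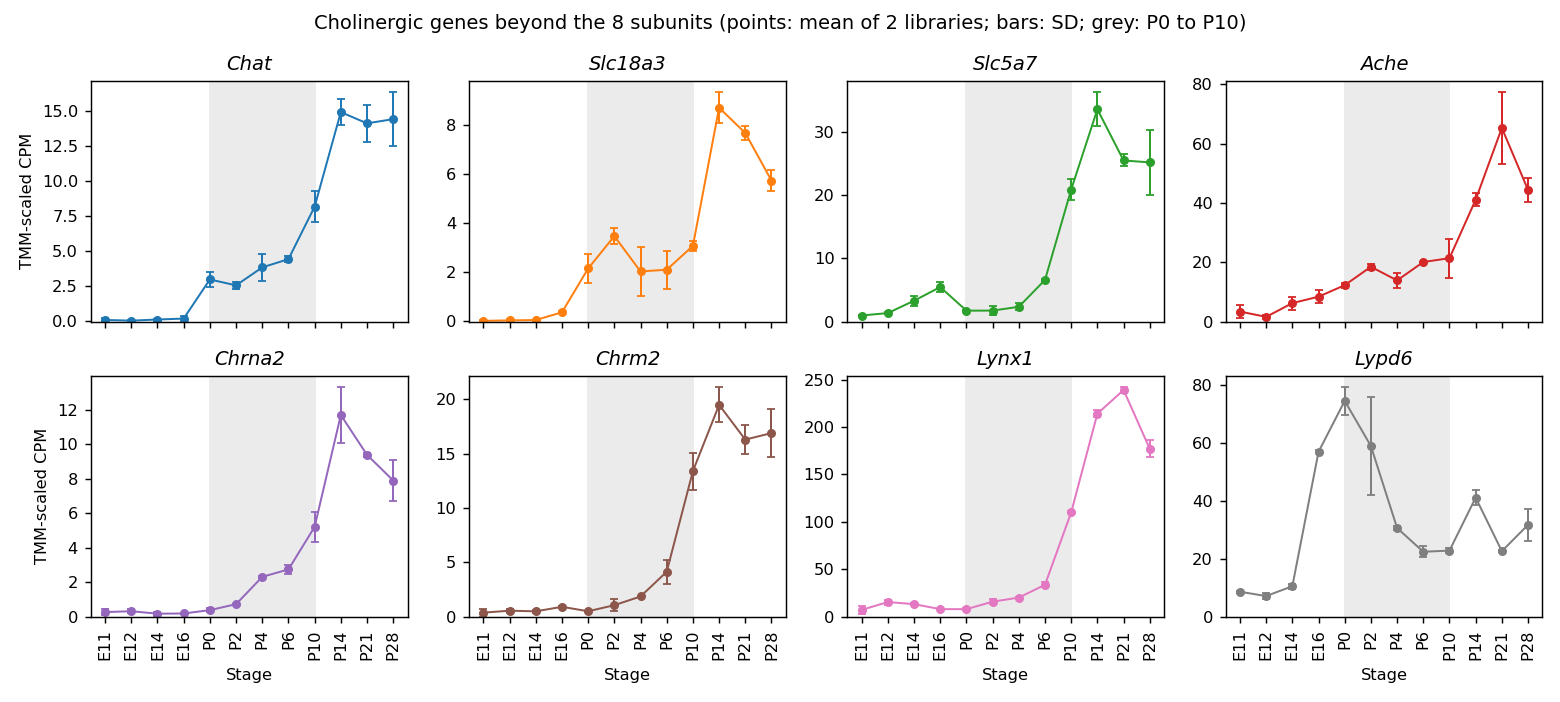
TMM-scaled CPM (vertical axis, own scale per panel) of 8 cholinergic genes outside the 8 subunits at each stage (horizontal axis), as the mean and SD of 2 libraries, with P0 to P10 in grey. Chat, Slc18a3, Chrna2 and Chrm2 are highest at P14, and Lypd6 is highest at P0.

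The other nicotinic subunit genes were low, with no stage mean above that of Chrna2 at P14 (11.7 ± 1.6 CPM). That level was near the highest stage mean of Chrna7 (11.4 CPM, also at P14). Of 8 listed, 5 had enough counts to be tested; Chrna9, Chrna10 and Chrnd did not, with at most 6.91 counts in any library. Chrna2, encoding the alpha2 subunit, rose 13.6-fold from P0 (0.379 ± 0.13 CPM) to P10 (5.21 ± 0.85 CPM, edgeR adjusted p = 1.49e-07) and was the only call of the 5 in that comparison, a share near the 15.2% of all genes called higher. In E16 against E11 the only call was Chrng, the fetal muscle subunit, at -4.85 with overlapping libraries, named after its value was seen, 1 of 5 where 9.11% of all genes were called lower. The median log2 changes of the 5 were -0.54 in E16 against E11, 0.89 in P10 against P0 and 0.32 in P28 against P10.

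Genes that assemble or modulate nicotinic receptors comprised 10 tested genes. In E16 against E11 5 were called higher, in P10 against P0 2 higher and 1 lower, and in P28 against P10 2 lower, with median log2 changes of 1.41, 0.42 and -0.22. Over all genes 13.6% were called higher in the first comparison, 15.2% higher and 12.4% lower in the second, and 4.9% lower in the third, so the counts in P10 against P0 are near the share of all genes. Lynx1, a Ly6 protein that restrains nicotinic receptors, was at 7.91 ± 1.3 CPM at P0, 110 ± 1.1 at P10 and 239 ± 2.8 at P21, and it rose 13.9-fold from P0 to P10 (edgeR adjusted p = 7.17e-10). Lypd1, a related protein, rose 4.4-fold from P0 to P10 and fell by 2.5 on the log2 scale from P10 to P28. Lypd6, another member of the Ly6 family, fell by 1.71 on the log2 scale from P0 (74.5 ± 4.9 CPM) to P10 (22.8 ± 0.76 CPM, edgeR adjusted p = 1.31e-07). Ly6h fell by 1.08 from P10 to P28. The 5 called higher by E16, of which Tmem35a (a chaperone of alpha7) and Lypd6b are named after their values were seen, also included Lypd1, Lypd6 and Ly6h.

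The genes whose course was most like that of each subunit were sought by the Pearson correlation of log2 stage means over 12 stages, among 12899 named genes that reached 5 CPM or more in some stage. For Chrna6 these were Gad1 (0.995), Slc35f4 (0.993) and Thy1 (0.992), and 933 genes exceeded 0.9. For Chrnb3 they were Jph4 (0.992), Slitrk6 (0.988) and Gpr26 (0.986), with 757 genes over 0.9, and for Chrnb2 Kif5a (0.994), Mturn (0.993) and Stmn3 (0.992), with 402. For Chrna3 they were Stk33 (0.969), Skil (0.967) and Draxin (0.967), with 158 over 0.9, and for Chrnb4 Gpr137b (0.982), Tubb2b (0.978) and Dynlt1a (0.977), with 155. For Chrna7 they were Aqp4 (0.967), Exoc3l (0.962) and Ppp1r3c (0.959), with 344, and for Chrna4 Pik3cd (0.967), Ccer2 (0.96) and Rab15 (0.958), with 17. Chrna5 had the fewest genes of like course, Peli2 (0.928) and Tmem178 (0.907), the only 2 over 0.9, and Synrg (0.896). These values describe stage means that share libraries and scaling. For Chrna6 and Chrnb3 they include E11 to E14, where both had few counts.

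In the authors' deposited table of gene clusters, the 8 subunits fell into 6 clusters. Chrna6 and Chrnb3 shared cluster 16, of 570 genes in the authors' deposited table, and Chrna5 and Chrnb2 shared cluster 15, of 454 genes. The authors' deposited table placed Chrna3 in cluster 30, Chrna4 in 29, Chrna7 in 22 and Chrnb4 in 10, so that the 3 neighbours on chromosome 9 were in 3 different clusters.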

How the data were processed

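The authors deposited estimated counts per Ensembl gene and transcript for 24 libraries and a table of their own comparisons with adjusted p-values, log2 fold changes and cluster numbers. The transcript file also gives transcript lengths. The submitters' processing notes name kallisto 0.42.4, edgeR 3.13.9 and GRCm38.p5, with no role stated. Gene estimates were rounded to whole numbers and filtered by filterByExpr (minimum count 10) to 21858 genes. They were then scaled by TMM and tested across all genes with edgeR 4.0.16 (glmQLFit and glmQLFTest in R 4.3.3, 1 coefficient per stage, 12 residual degrees of freedom), with Benjamini-Hochberg adjustment. A call needed an adjusted p under 0.05 and at least 2-fold. Standard errors were derived from each log2 change and its F statistic.

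Per-length levels used transcript estimates and lengths from the deposited file. Libraries of a stage differed beyond sampling noise and none was merged. Log2 stage means for correlations used a prior count of 2. All 8 subunits were named. From each of 4 lists the rule named Chat, Slc18a3, Slc5a7, Ache and the 3 largest calls of P10 against P0 and of P28 against P10. Tmem35a is Tmem35 in the files and was matched by its RefSeq synonym. The members and lists were chosen with earlier results of these data known. Alternatives were other scalings, DESeq2 1.42.0, other filters, summed transcripts, no fold threshold, only the 2 stages compared, the longest transcript, a replicate block, leaving out each library and, chosen after seeing the data, leaving out 4 lens-rich libraries. The script was tested on simulated data. Intervals on counts cover counting error only.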

Additional observations from a re-analysis of the deposited data

How the results depend on the processing

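The count of called subunit genes was 8 over the 12 stages and 7 in E16 against E11 under every alternative run, including the removal of the 4 lens-rich libraries. In P28 against P10 it was 5 with no fold threshold, and over the 11 steps 34, against 3 and 18. Leaving out each library in turn gave 15 to 19 calls over the steps, 5 to 6 in P10 against P0, 2 to 3 in P28 against P10, 7 in E16 against E11 and 8 over all stages. The replicate block gave 18, 7, 5, 3 and 8 calls, the same counts. Deviations of same-numbered libraries correlated at -0.0568 to 0.127 over 66 pairs of stages. The labels name no pairing, and such correlations over all genes cannot tell whether some libraries were paired or processed together. Changes that turned sign were none of them called: Chrna7 in E16 against E11 was 0.41 without the second E11 library. Chrnb2 in P10 against P0 was -0.02 without the second P0 library and -0.06 without the first P10 library. Chrna4 in P28 against P10 was 0.12 without the first P10 library. Chrnb2 in P28 against P10 was -0.09 with library size alone, -0.09 without the second P10 library and -0.13 without the first P28 library; the cause was not tested. Leaving out each library, these 4 changes ranged from -0.77 to 0.41, from -0.06 to 0.17, from -0.27 to 0.12 and from -0.13 to 0.16. Library size alone moved the median log2 change of all genes by 0.14 in E16 against E11 and by -0.11 in P28 against P10. The longest transcript as length moved 40 of 96 per-length shares by over 1 SD, by at most 2.11 percentage points. At E11 to E14, Chrna6 and Chrnb3 had few counts, so depth limits their early ratios.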

Other observations

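The muscarinic receptors, the G protein-coupled receptors for acetylcholine, had all 5 genes tested. In P10 against P0 3 were called higher, Chrm2 at 4.76 on the log2 scale, Chrm3 at 1.36 and Chrm1 at 1.22. In P28 against P10 2 were called higher, Chrm4 at 3.06 and Chrm1 at 1.17, and in E16 against E11 2, Chrm3 at 3.22 and Chrm2 at 1.28. The median log2 changes of the 5 were 1.26, 0.93 and 0.7 in these comparisons. Over all genes 15.2%, 6.35% and 13.6% were called higher in these. Chrm2 was at 0.49 ± 0.025 CPM (SD, n = 2) at P0, 13.4 ± 1.7 at P10 and 19.5 ± 1.6 at P14. Chrm4 was very low at every stage, with 0.081 ± 0.022 CPM at P10, 0.707 ± 0.066 at P28 and 0.692 ± 0.28 at E11. Its highest stage mean was 0.786 CPM, at P21.

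Most Chrnb2 estimates were assigned to a transcript annotated without a coding sequence. Chrnb2-003, of 6145 bases in 5 exons, held 91.8% of the gene's estimates over the 24 libraries, and the coding Chrnb2-001, of 6399 bases in 6 exons, held 4.07%. The pair share 6109 bases, so the split rests on the few reads that cover the 36 and 290 bases particular to each. Chrnb2-001 was listed at 0 in the libraries of E11 and E12 and held 13.8% ± 0.49 (SD, n = 2) in those of P21. Of the other subunits, Chrna3, Chrna5, Chrna6 and Chrnb4 had 1 transcript, and 1 transcript held 98.9% of Chrna4, 97.7% of Chrnb3 and 94.8% of Chrna7.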
